A study of Arabidopsis thaliana with 24 samples.

Results

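The genes described here are 6 members of the WRKY transcription factor family of Arabidopsis thaliana, taken from a count table of 33602 genes by their AGI locus codes. WRKY18 (AT4G31800), WRKY40 (AT1G80840) and WRKY60 (AT2G25000) make up group IIa of the family. WRKY33 (AT2G38470), WRKY25 (AT2G30250) and WRKY26 (AT5G07100) are related members of group I. All 6 had enough counts to be among the 17734 genes tested. Transcripts of whole seedlings were measured by RNA sequencing in 24 libraries, 4 in each of 6 groups. All seedlings were of the Col-0 ecotype, had grown 7 days in liquid medium, and were collected after 10 min with either 5 µM DMBQ (2,6-dimethoxy-1,4-benzoquinone, a quinone) or DMSO, its solvent, called mock here. There were 3 genotypes: WT-expressing aequorin, shortened to WT below (aequorin is a calcium-reporting photoprotein), card1-1 and card1-2. CARD1 (AT5G49760, also named HPCA1) encodes a receptor kinase known for sensing quinones and hydrogen peroxide. The labels give no lesion for either allele, no promoter for aequorin and no number of plants per library. Nor do they tell if the 4 replicates were grown apart, so each p-value reflects only how these libraries scatter, and that scatter may be partly technical.

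WRKY proteins bind DNA through a domain that contacts the W box, a short element with the core TTGAC, and many WRKY genes carry W boxes in their own promoters. WRKY18, WRKY40 and WRKY60 bind one another as well as DNA, and are known as overlapping regulators, often repressors, of defence and abscisic acid responses. WRKY33 is a substrate of the immune kinases MPK3 and MPK6 and is known for driving synthesis of camalexin, an antifungal compound, and resistance to Botrytis. WRKY25 and WRKY26 are known to act with WRKY33 in heat tolerance.

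Promoter sequences were read from the RefSeq TAIR10.1 assembly for all 6 genes, from 250 bases before the annotated gene start to 50 bases after it. Both strands were searched for 3 elements, whose matches did not overlap. The W box was searched as TTGACC or as TTGACT. The rapid stress response element, bound by calmodulin-binding CAMTA factors, was searched as CGCGTT. The GCC box, bound by ERF factors, was searched as GCCGCC. The promoters of WRKY33, WRKY40 and WRKY18 are shown because these are the genes that rose with DMBQ, and that of WRKY25 because it holds a W box while the gene was not called. Capitals mark W boxes, which all lie on the opposite strand and so read GGTCAA or AGTCAA here.
WRKY33: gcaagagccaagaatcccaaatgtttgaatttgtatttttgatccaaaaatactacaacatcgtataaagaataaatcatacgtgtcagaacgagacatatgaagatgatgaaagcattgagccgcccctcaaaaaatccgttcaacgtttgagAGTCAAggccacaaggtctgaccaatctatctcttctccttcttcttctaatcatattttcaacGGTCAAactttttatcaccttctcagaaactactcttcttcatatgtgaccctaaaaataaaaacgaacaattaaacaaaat
WRKY40: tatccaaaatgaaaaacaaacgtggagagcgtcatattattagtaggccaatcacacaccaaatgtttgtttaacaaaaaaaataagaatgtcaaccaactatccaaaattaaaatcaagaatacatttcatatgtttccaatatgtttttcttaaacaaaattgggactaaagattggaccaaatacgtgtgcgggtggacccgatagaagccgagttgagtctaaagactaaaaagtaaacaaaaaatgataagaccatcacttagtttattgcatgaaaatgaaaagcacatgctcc
WRKY18: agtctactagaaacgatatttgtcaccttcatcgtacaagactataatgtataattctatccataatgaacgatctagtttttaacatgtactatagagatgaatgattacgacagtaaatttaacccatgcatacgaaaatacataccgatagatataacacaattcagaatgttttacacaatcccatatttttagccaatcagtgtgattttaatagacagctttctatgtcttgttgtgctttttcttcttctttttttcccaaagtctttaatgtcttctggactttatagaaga
WRKY25: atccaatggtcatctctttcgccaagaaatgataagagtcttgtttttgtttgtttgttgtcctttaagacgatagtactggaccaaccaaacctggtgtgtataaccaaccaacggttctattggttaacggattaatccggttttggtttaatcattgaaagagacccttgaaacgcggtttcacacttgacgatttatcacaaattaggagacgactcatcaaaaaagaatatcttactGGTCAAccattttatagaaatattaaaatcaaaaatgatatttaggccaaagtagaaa

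The WRKY33 window (chr2:16107985-16108284, plus strand) held 2 W boxes, the first base of one 96 and of the other 32 bases before the start, and a GCC box starting 129 bases before it. The WRKY40 window (chr1:30383311-30383610, plus strand) and the WRKY18 window (chr4:15382527-15382826, plus strand) held none of the searched letters, and neither did that of WRKY60. In the WRKY25 window (chr2:12905289-12905588, minus strand) a W box began 8 and a CGCGTT match 76 bases before the start. WRKY26 had a W box beginning 58 and a GCC box beginning 75 bases before its start. Of 27443 promoters of this length, 32.4% held at least 1 W box, 7.7% held 2 or more, 3.4% held CGCGTT and 2.57% held GCCGCC. With 1000 bases before the start, W box matches numbered 4 for WRKY33, 3 for WRKY18 and for WRKY60, 2 for WRKY40 and for WRKY26, and 1 for WRKY25, against a median of 1. At least 4 matches were found in 5.38% of these longer windows and at least 3 in 14.8%. These counts describe the letters and not binding. Of the genes that rose, WRKY33 held TTGACC or TTGACT in the short window, and WRKY40 and WRKY18 held neither. The bare core TTGAC was not searched, and the part of W boxes in the response was not tested.

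The genes differ in structure. WRKY33 spans chr2:16108235-16110766 in 5 exons and has an exonic length of 2028 bases, and WRKY18 spans chr4:15382777-15385100 with 2027 exonic bases. WRKY40 (chr1:30383561-30385499) has 1325, WRKY60 (chr2:10629662-10631413) 1582, WRKY25 (chr2:12903208-12905338, the only one of the 6 on the minus strand) 1776 and WRKY26 (chr5:2204206-2205965) 1576 exonic bases. A neighbour on the opposite strand, AT2G38480, shares 26 exonic bases with WRKY33, and AT1G80850 shares 51 with WRKY40. The antisense RNA gene AT2G08965 shares 23 with WRKY33 and has no row in the table. The strand setting of the counting is not given in the sources used here, so reads of such partners cannot be told apart. CPM are read counts scaled to a common library size by the TMM method. In CPM, AT2G38480 itself was at 1.99 ± 0.754 (SD, n = 4) in WT mock and 4.94 ± 1.23 in WT DMBQ. It was at 4.24 ± 1.85 and 2.92 ± 2.19 in card1-1, and at 3.26 ± 1.6 and 3.59 ± 1.94 in card1-2. AT1G80850 was at 6.19 ± 1.11 and 5.64 ± 0.986 in WT and at 5.98 ± 0.709 and 7.98 ± 4.47 in card1-1. In card1-2, AT1G80850 was at 4.77 ± 2.96 in mock and 14.4 ± 8.81 with DMBQ.

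Libraries held 2048246 to 9000207 gene counts. The share of alignment records that were not unique, a tally the deposited table carries, ran from 21.3% to 29% in WT mock, 29.7% to 41.8% in WT DMBQ, 17.3% to 32.3% in card1-1 mock, 48.3% to 66.5% in card1-1 DMBQ, 33.6% to 41.2% in card1-2 mock and 31.9% to 61.1% in card1-2 DMBQ. It did not overlap between mock and DMBQ in WT or in card1-1, so there it cannot be told apart from the treatment except by a model term. In card1-2 the overlap came from DMBQ replicate 2 alone, at 31.9%. Nor did the share overlap between WT and card1-1 with DMBQ, or between WT and card1-2 in mock. In these comparisons it cannot be told apart from the genotype either, and the differences of response draw on the same groups. Its part in the results was not tested beyond the fit with it as a covariate and the fit without the 3 libraries above 55% (card1-1 DMBQ replicates 1 and 4 and card1-2 DMBQ replicate 3). The latter fit keeps only replicates 2 and 3 of card1-1 DMBQ. All 5 shoot markers and at least 7 of 8 root markers had counts in every group, as whole seedlings should, and the 3 embryo markers were at 0 in 22 of 24 libraries. The exceptions were card1-1 DMBQ replicate 1 with 39 counts (14.4 CPM) and card1-1 mock replicate 2 with 1 count. The CARD1 transcript stood at 71.4 ± 5.41 CPM (SD, n = 4) in mock-treated WT. It stood at 54.1 ± 6.03 in mock-treated card1-1 and 52.8 ± 12.7 in mock-treated card1-2, which does not check the labels because the lesions are not given.

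In WT, WRKY40, WRKY33 and WRKY18 rose within 10 min of DMBQ. By fold, WRKY40 rose 11.9 times (95% interval 6.66 to 21.4), WRKY33 5.71 times (3.48 to 9.37) and WRKY18 3.65 times (2.58 to 5.17). WRKY60, WRKY25 and WRKY26 were not called. Values are normalised read counts in CPM, and a gene was called at a Benjamini-Hochberg adjusted p under 0.05 in edgeR's quasi-likelihood test fitted to all 24 libraries and all genes tested. By this rule 3 of the 6 WRKY genes rose in WT and none fell. Of all genes tested, 1.03% were called, 1.01% higher and 0.0113% lower. In bulk seedlings, more cells expressing a gene and more RNA per cell cannot be told apart. Nor can fewer such cells and less RNA per cell.

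WRKY40, the group IIa member known for rapid induction by wounding and pathogens, had 1.2, 7.1, 5.68 and 7.24 CPM in WT mock replicates 1 to 4. With DMBQ it had 36.3, 95.6, 80 and 44.6 CPM. Every DMBQ library lay above every mock library, and the mock levels rest on 5 to 44 counts per library. The log2 fold change was 3.58 (SE 0.41, adjusted p = 9.23e-07), ranked 19 by p among all genes tested. WRKY33 had 79.3, 69, 79.5 and 83.1 CPM in WT mock and 420, 420, 507 and 428 CPM with DMBQ. These groups were the least scattered of the 6 genes, with coefficients of variation of 7.78% and 9.56%, and did not overlap. Its log2 fold change was 2.51 (SE 0.34, adjusted p = 0.000181). For WRKY18, which is known to pair with WRKY40, WT mock libraries had 43.4, 31.1, 30.4 and 31.8 CPM and DMBQ libraries 150, 128, 115 and 106 CPM. The lowest DMBQ value was above the highest mock value, and the log2 fold change was 1.87 (SE 0.25, adjusted p = 4.6e-06). The share of genes whose WT DMBQ libraries all lay above all WT mock libraries was 4.22%. All 3 calls were kept in 34 of 34 alternatives each, among them the fit with the not-unique share as covariate, where the log2 fold changes were 3.15 for WRKY40, 2.45 for WRKY33 and 1.72 for WRKY18.

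The other 3 genes gave smaller values. WRKY60, which lies downstream of WRKY18 and WRKY40 in abscisic acid signalling, had 6.75 to 10.4 CPM in WT mock and 8.68, 8.84, 21.5 and 9.55 CPM with DMBQ. A single library, replicate 3, lay well above the rest, and the log2 fold change of 0.49 (95% interval −0.43 to 1.41, adjusted p = 1) did not pass. WRKY25, the closest relative of WRKY33 in sequence and function, had 61.4 to 106 CPM in mock and 82.7 to 112 CPM with DMBQ. Its log2 fold change was 0.32 (95% interval −0.038 to 0.69, adjusted p = 1), and the upper bound of the interval is a rise of 1.61 times. WRKY26 had 30.4, 21.3, 75 and 85 CPM in WT mock and 43.4, 36.2, 71.2 and 79.9 CPM with DMBQ. In both groups its replicates 3 and 4 lay above replicates 1 and 2. Its log2 fold change of 0.13 came with a 95% interval of −0.95 to 1.20, whose upper bound is a rise of 2.3 times.

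**Figure D1:**
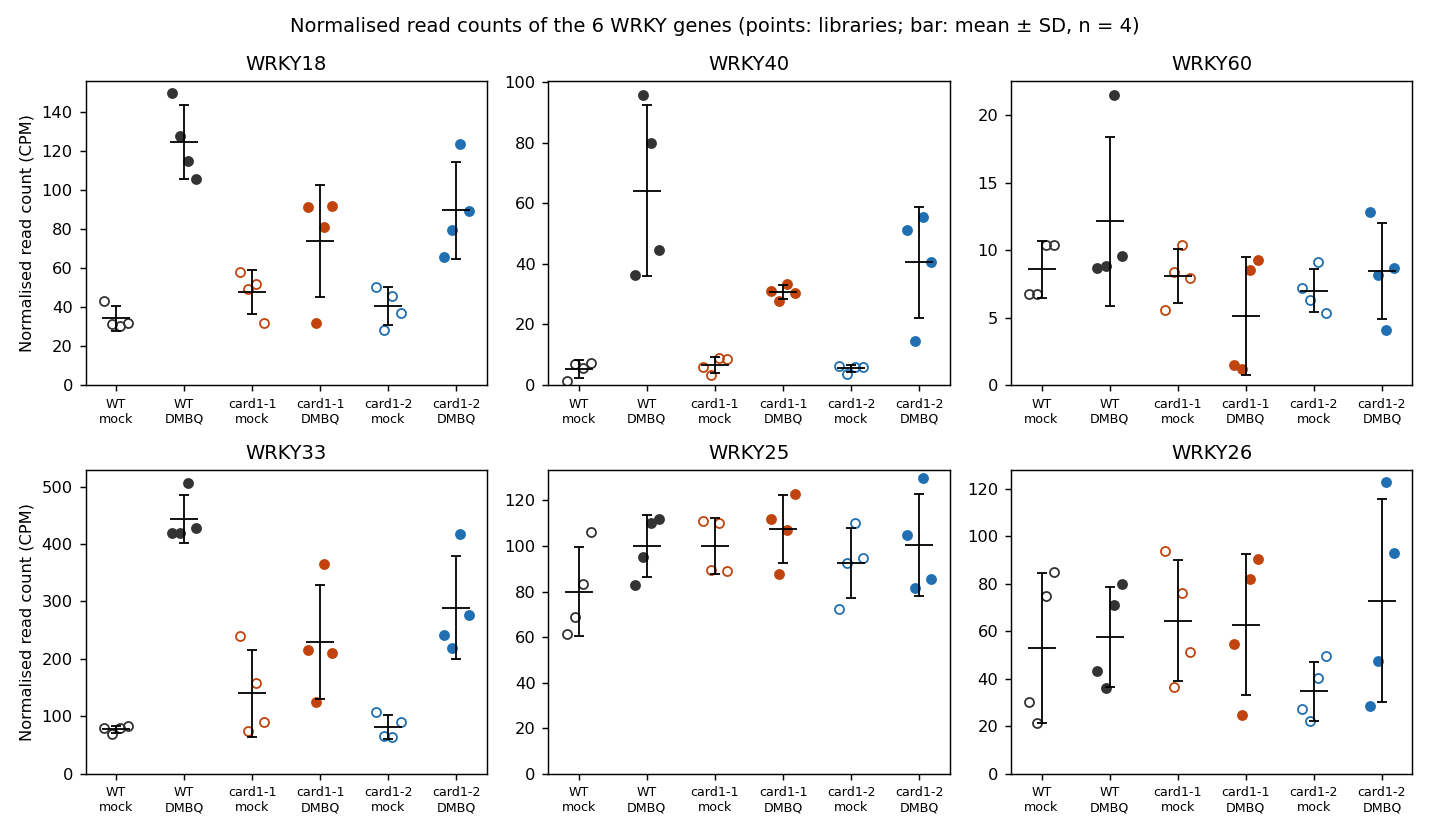
Normalised read counts (CPM, y axis from 0 in each panel) of the 6 WRKY genes in each group (x axis), open points for mock and filled points for DMBQ libraries in replicate order, with mean ± SD (n = 4). WRKY40, WRKY33 and WRKY18 are higher in all WT DMBQ libraries than in all WT mock libraries, while the groups overlap for WRKY60, WRKY25 and WRKY26.

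With DMBQ the order of the genes changed. Levels of different genes are compared here as CPM per kilobase of exonic length. Whether counts scale with exonic length in these libraries was not tested, and the levels and shares below rest on it. In WT mock, WRKY25 (45.1 ± 11.1, SD, n = 4), WRKY33 (38.3 ± 2.98) and WRKY26 (33.6 ± 20.1) lay close together, and their gaps were smaller than their spreads. WRKY18 followed with 16.9 ± 3.04, then WRKY60 with 5.42 ± 1.32 and WRKY40 with 4 ± 2.13, the last pair within their spread. In WT DMBQ, WRKY33 stood first with 219 ± 20.9, far above WRKY18 (61.5 ± 9.43), WRKY25 (56.3 ± 7.74) and WRKY40 (48.4 ± 21.3), which did not differ beyond their spread. WRKY26 was at 36.6 ± 13.4, within the spread of WRKY40, and WRKY60 remained lowest at 7.67 ± 3.94. As a share of the level summed over the 6 genes, WRKY33 made up 22.4% to 32.7% in the WT mock libraries and 48.7% to 53.4% in the WT DMBQ libraries. WRKY25 went from 31.5% ± 2.83 to 13.1% ± 1.40 of that sum without a called change in its own level. WRKY40 went from 2.81% ± 1.66 to 11.1% ± 4.54.

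**Figure D2:**
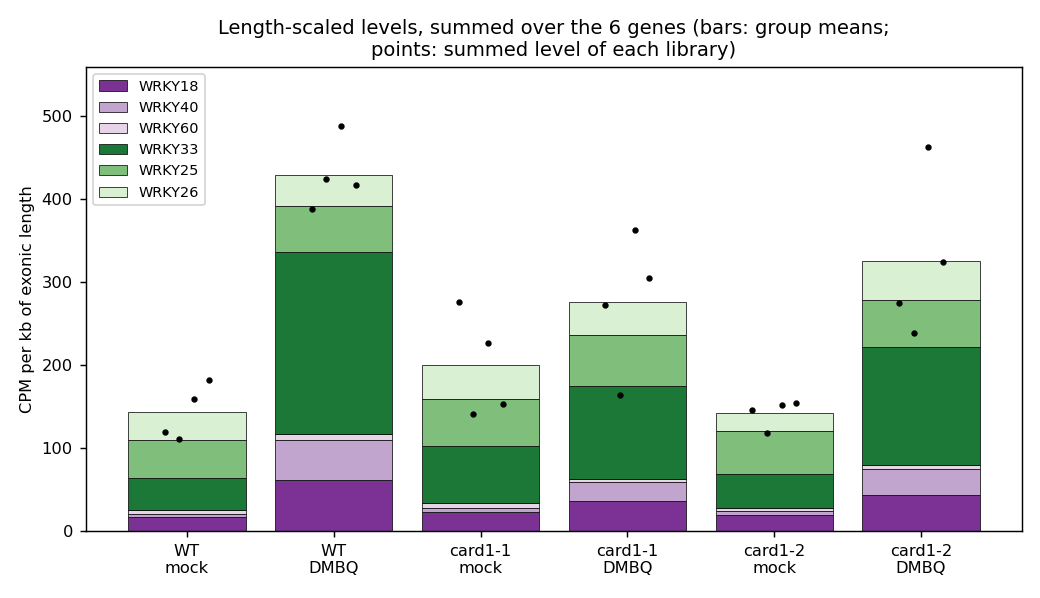
Length-scaled levels (CPM per kb of exonic length, y axis from 0) of the 6 WRKY genes stacked by group (x axis); bars are means of 4 libraries and points the sum in each library. The WT DMBQ libraries sum to 388 to 488 and the WT mock libraries to 111 to 182, and WRKY33 is the widest band in all 3 DMBQ groups.

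In card1-1, of the 6 genes only WRKY40 was called, 4.62 times higher with DMBQ (95% interval 2.58 to 8.29). That is 1 gene of 6. Of all genes tested, 6.70% were called in card1-1, 3.55% higher and 3.16% lower. WRKY40 had 6.05, 3.18, 8.9 and 8.52 CPM in card1-1 mock and 30.9, 27.8, 33.4 and 30.4 CPM with DMBQ. The DMBQ libraries lay within a narrow band, all above mock, as did 4.86% of all genes tested. The log2 fold change was 2.21 (SE 0.41, adjusted p = 0.00112). The call was lost in the fit with the not-unique share as covariate, where the log2 fold change was 0.69 (adjusted p = 0.697), and in no other of 34 alternatives. Without the 3 libraries above 55% it was 2.20 (adjusted p = 0.0176).

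WRKY33 and WRKY18 did not pass in card1-1, and their libraries overlapped. WRKY33 had 239, 73.9, 158 and 89.3 CPM in card1-1 mock and 215, 125, 365 and 211 CPM with DMBQ. Mock replicate 1 lay above DMBQ replicates 1, 2 and 4, and the coefficient of variation in mock was 53.7%, against 7.78% in WT mock. Its log2 fold change was 0.71 (SE 0.33, 95% interval 0.025 to 1.39, adjusted p = 0.227). WRKY18 had 58.1, 49.4, 51.9 and 31.9 CPM in mock and 91.3, 31.8, 81.2 and 91.7 CPM with DMBQ. Replicate 2 was the one DMBQ library at the mock level, and it had the lowest value of WRKY33 in its group too. The log2 fold change of WRKY18 was 0.63 (SE 0.25, adjusted p = 0.123). Without card1-1 DMBQ replicate 2, WRKY18 was called, at a log2 fold change of 0.88 (adjusted p = 0.00958). Without the libraries above 55% not unique, neither was called, at 0.24 for WRKY18 and 0.80 for WRKY33.

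WRKY60, WRKY25 and WRKY26 were not called in card1-1, with log2 fold changes of −0.66, 0.11 and −0.039. WRKY60 split within the DMBQ group, with 1.47 and 1.21 CPM in replicates 1 and 2 and 8.56 and 9.26 CPM in replicates 3 and 4. The low pair rests on as few as 3 counts in a library, and depth limits what can be said of it. Markers moved in card1-1 as well. Of the 5 shoot markers 3 were called higher with DMBQ and 1 lower, and their summed level was 12800 to 18700 CPM in card1-1 mock and 17900 to 21900 CPM in card1-1 DMBQ. Of the 6 root markers tested 1 was called lower, and the summed level of all 8 was 1280 to 1620 and 1350 to 1620 CPM. Their part in the WRKY values was not tested.

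In card1-2, WRKY40, WRKY33 and WRKY18 were called higher with DMBQ, as in WT. These are 3 of the 6 genes. Of all genes tested, 2.20% were called in card1-2, 1.07% higher and 1.13% lower. For WRKY40 the mock libraries had 6.41, 3.73, 6.09 and 5.83 CPM and the DMBQ libraries 51.3, 14.5, 55.5 and 40.5 CPM. The libraries did not overlap, which held for 4.07% of all genes tested. Replicate 2, the deepest library of all with 9000207 counts, was well below the other DMBQ libraries. Replicates 2, 4, 1 and 3 had 31.9%, 47.4%, 50.9% and 61.1% of records not unique, and WRKY40 rose in that order. The part of that share in the WRKY40 values was not tested beyond the fits named above. The log2 fold change was 2.86 (SE 0.43, 7.24 times, adjusted p = 0.000191). With limma voom it was 2.46 and not called (adjusted p = 0.083), the only alternative of 34 that lost it.

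WRKY33 had 108, 65.1, 64.3 and 89.3 CPM in card1-2 mock and 242, 219, 418 and 277 CPM with DMBQ. All DMBQ values were more than the highest mock value, and the log2 fold change was 1.82 (SE 0.34, 3.54 times, adjusted p = 0.00539). WRKY18 had 50.5, 28.4, 45.7 and 36.9 CPM in mock and 65.7, 79.6, 124 and 89.5 CPM with DMBQ. Its libraries did not overlap either, and its log2 fold change was 1.15 (SE 0.25, 2.21 times, adjusted p = 0.00725). Both calls were kept in 34 of 34 alternatives each. In all 3 genes the highest DMBQ value came from replicate 3, a library above 55% not unique, and without the 3 such libraries the log2 fold changes were 2.66 for WRKY40, 1.59 for WRKY33 and 0.96 for WRKY18 (adjusted p = 0.00562, 0.0312 and 0.0298).

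WRKY60 and WRKY25 had log2 fold changes of 0.27 and 0.11 in card1-2 and were not called. WRKY26 had 27.2, 22.1, 40.2 and 49.5 CPM in card1-2 mock and 28.4, 47.7, 123 and 92.8 CPM with DMBQ. The groups overlapped, with replicates 3 and 4 high in both, and its log2 fold change of 1.07 (SE 0.53, adjusted p = 0.373) did not pass. In card1-2, 1 of 5 shoot and 1 of 6 tested root markers were called lower with DMBQ. The summed shoot level was 15900 to 19700 CPM in mock and 17000 to 20000 CPM with DMBQ. The summed root level was 1590 to 1880 and 1060 to 1360 CPM, without overlap. Most of that root sum was PYK10, at 1550 ± 133 CPM in mock and 1070 ± 146 CPM with DMBQ (SD, n = 4). Of the 6 root markers tested, 3 had a log2 fold change above 0, with a median of −0.11. The part of the markers in the WRKY values was not tested. Of all genes called in card1-2, 190 were higher and 200 lower, and the split was 138 and 283 with total counts alone for scaling and 129 and 59 with length and GC offsets. The directions of the 3 called WRKY genes were the same under each.

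**Figure D3:**
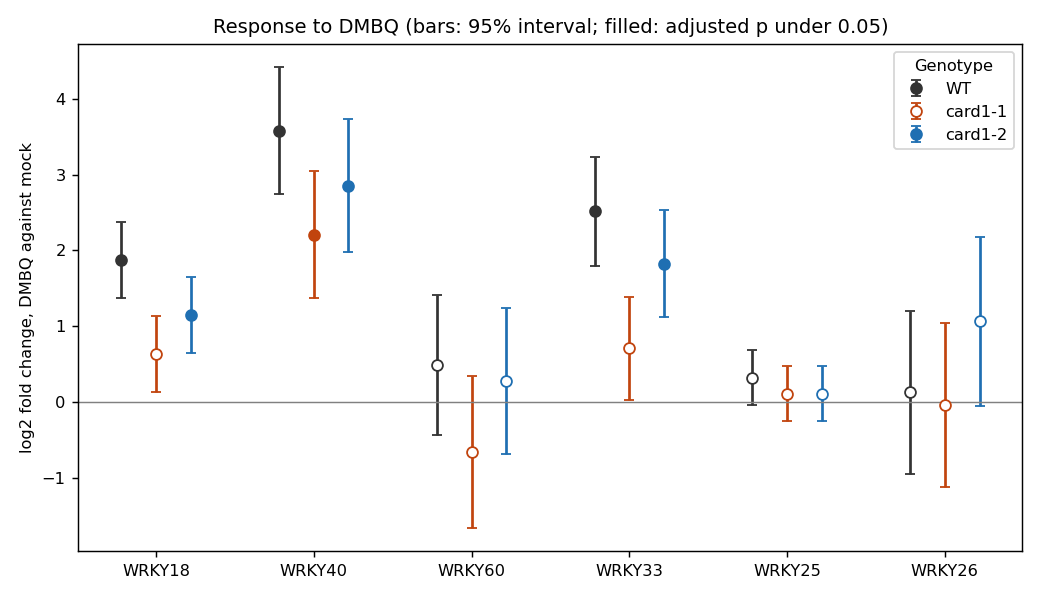
Log2 fold change of DMBQ against mock (y axis) for each WRKY gene (x axis) in WT, card1-1 and card1-2, with 95% intervals; filled points have an adjusted p under 0.05. WRKY18, WRKY40 and WRKY33 have their highest values in WT (1.87, 3.58 and 2.51), then card1-2 (1.15, 2.86 and 1.82), then card1-1 (0.63, 2.21 and 0.71).

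The difference of the DMBQ response between each mutant and WT was then tested directly. As a share of the WT log2 fold change, the card1-1 value was 33.6% for WRKY18, 61.8% for WRKY40 and 28.2% for WRKY33, and the card1-2 value was 61.3%, 79.9% and 72.6%. The WRKY40 share in card1-1 was smaller with the not-unique share as covariate, where the log2 fold change was 0.69 in card1-1 and 3.15 in WT. In card1-1 the response of WRKY33 was 1.81 log2 units below that of WT (difference −1.81, SE 0.46, 95% interval −2.77 to −0.84). WRKY18 differed by −1.24 (SE 0.34, interval −1.94 to −0.54) and WRKY40 by −1.37 (SE 0.57, interval −2.53 to −0.21). After adjustment none of these passed (adjusted p = 0.156, 0.156 and 0.418 by edgeR's quasi-likelihood test). With the covariate the WRKY40 difference was −2.46 (adjusted p = 0.124). In all, 0 of 6 genes were called, against 0.0564% of all genes tested, while 3 had an unadjusted p under 0.05. DESeq2 called 1 and limma voom 0.

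For WRKY33, the alternatives that called the difference in card1-1 included DESeq2 (−1.80, adjusted p = 0.0252) and the fit without card1-1 DMBQ replicate 3 (−2.11, adjusted p = 0.0495), the library with its highest card1-1 value, and over 34 alternatives it ran from −2.11 to −1.42 with adjusted p of 0.0252 to 0.317. WRKY18 was called without the 3 libraries above 55% not unique (−1.63, adjusted p = 0.048), where WRKY33 was at −1.71 and WRKY40 at −1.37, neither of them called. That fit keeps only replicates 2 and 3 of card1-1 DMBQ, and replicate 2 had the lowest WRKY18 value of its group, 31.8 CPM. Measured library by library against its own genotype's mock mean, WRKY33 was 2.43, 2.43, 2.70 and 2.46 log2 units up in the WT DMBQ libraries, 0.77, −0.0090, 1.53 and 0.74 in card1-1, and 1.59, 1.45, 2.38 and 1.79 in card1-2. The mutant libraries scattered more widely than those of WT on this scale, which takes the mock means as known. The other called genes overlapped between card1-2 and WT, where WRKY18 reached 1.64 in card1-2 replicate 3 against a WT minimum of 1.63, and WRKY40 reached 3.23 against a WT minimum of 2.86. These comparisons share the WT libraries, so the mutants' values are not independent of each other.

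In card1-2 the differences from the WT response were smaller, −0.69 for WRKY33 (95% interval −1.66 to 0.28), −0.72 for WRKY18 (−1.42 to −0.023) and −0.72 for WRKY40 (−1.91 to 0.47). Without the libraries above 55% not unique they were −0.92, −0.91 and −0.91. Of the 6 genes 0 were called by edgeR, DESeq2 or limma voom, against 0.0282% of all genes tested, and 1 had an unadjusted p under 0.05 by edgeR. For the mean response of both alleles minus that of WT, 0 of 6 were called by these tools, against 0.0620%, with 3 at an unadjusted p under 0.05. The values were −1.25 for WRKY33, −0.98 for WRKY18 and −1.04 for WRKY40 (adjusted p = 0.319, 0.211 and 0.592), and with the covariate WRKY40 was at −1.70 (adjusted p = 0.17). WRKY25, with an interval of −0.66 to 0.23 for this mean difference, gave the narrowest bounds of the 6 genes. The 2 alleles were not told apart either. The response in card1-1 minus that in card1-2 was −1.12 for WRKY33 (95% interval −2.09 to −0.14, adjusted p = 0.464), 0 of 6 were called by edgeR, DESeq2 or limma voom, and 1 had an unadjusted p under 0.05 by edgeR. Of all genes tested, edgeR called 0%, limma voom 0 genes and DESeq2 45.

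**Figure D4:**
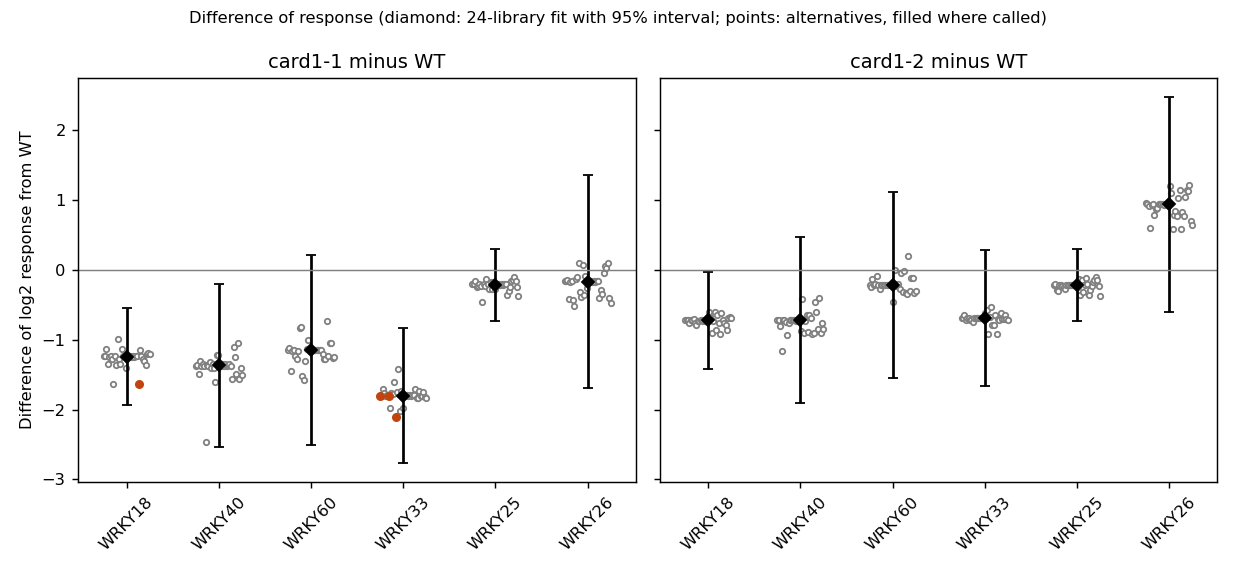
Difference of the log2 response to DMBQ from that of WT (y axis) for each WRKY gene (x axis) in card1-1 and card1-2; diamonds with bars are the fit to all 24 libraries with its 95% interval, and points are the alternatives, filled where called. The values of WRKY18, WRKY40 and WRKY33 stay below 0 in every alternative shown, and filled points appear for WRKY18 and WRKY33 in card1-1.

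Levels were also compared between genotypes within each treatment. With DMBQ, WRKY33 was highest in WT (444 ± 42.4 CPM, SD, n = 4), then card1-2 (289 ± 89.2) and card1-1 (229 ± 99.9), and the WT libraries did not overlap those of either mutant. WRKY40 (36.3 to 95.6 CPM in WT, 27.8 to 33.4 in card1-1) and WRKY18 (106 to 150 CPM in WT, 31.8 to 91.7 in card1-1) did not overlap between WT and card1-1 either. Thus 3 of 6 genes had all card1-1 DMBQ libraries below all WT DMBQ libraries, against 3.84% of all genes tested. In card1-2 it was 1 of 6, against 3.62%. The share not unique did not overlap between WT and card1-1 with DMBQ either. The log2 differences from WT in card1-1 were −0.95 for WRKY33, −1.06 for WRKY40 and −0.75 for WRKY18 (adjusted p = 0.197, 0.187 and 0.139). None of the 6 was called in card1-1 by edgeR, DESeq2 or limma voom, against 0.801% of all genes tested by edgeR, and 4 had an unadjusted p under 0.05 by edgeR. Some edgeR alternatives did call a member, WRKY40 with the not-unique share as covariate (−2.13, adjusted p = 0.0319) and WRKY18 without the libraries above 55% (−1.14, adjusted p = 0.0481) among them. The call of WRKY18 rests on replicates 2 and 3 of card1-1 DMBQ alone, with its lowest value in replicate 2. In card1-2, 0 of 6 were called by these tools, against 0.789%, and 0 had an unadjusted p under 0.05 by edgeR. WRKY60 had 5.13 ± 4.38 CPM in card1-1 DMBQ and 12.1 ± 6.24 in WT DMBQ, with overlapping libraries.

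Without DMBQ the genotypes were not told apart. Of the 6 genes 0 were called by edgeR, DESeq2 or limma voom in card1-1, as were 0% of all genes tested by edgeR, and in card1-2, against 0.0226%. Unadjusted, 1 gene was under 0.05 in card1-1 and 0 in card1-2 by edgeR. That gene was WRKY33, with 140 ± 75.2 CPM (SD, n = 4) in card1-1 mock and 77.7 ± 6.04 in WT mock (log2 difference 0.85, 95% interval 0.16 to 1.54, adjusted p = 1). The spread came from replicates 1 and 3, at 239 and 158 CPM, while replicates 2 and 4, at 73.9 and 89.3 CPM, lay near the WT libraries. Since this mock level enters the card1-1 response, the smaller card1-1 response of WRKY33 rests on both a higher mean in mock and a lower mean with DMBQ. The same holds for WRKY18, whose log2 difference from WT in card1-1 was 0.49 in mock (95% interval −0.011 to 0.99) and −0.75 with DMBQ, neither of them called. In card1-2 mock, WRKY33 was at 81.6 ± 21 CPM (log2 difference from WT 0.067, 95% interval −0.63 to 0.76).

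Across the 6 groups, neighbouring means were mostly within their spread. For WRKY33 the step from WT DMBQ down to card1-2 DMBQ was the only one where the libraries did not overlap. The libraries nearest each other there were at 420 and 418 CPM, and the difference was not called. For WRKY40 the step lay between card1-1 DMBQ (30.7 ± 2.31 CPM) and card1-1 mock (6.66 ± 2.65), which separates all DMBQ groups from all mock groups. WRKY18 ordered as WT DMBQ (125 ± 19.1), card1-2 DMBQ (89.6 ± 24.8), card1-1 DMBQ (74 ± 28.5), card1-1 mock (47.8 ± 11.2), card1-2 mock (40.4 ± 9.78) and WT mock (34.2 ± 6.16), and all neighbours overlapped, though the first gap was larger than either SD. WRKY25 kept to 80 ± 19.7 to 107 ± 15 CPM over the groups, with every neighbouring pair overlapping. WRKY26 ranged from 34.8 ± 12.5 in card1-2 mock to 73 ± 43 in card1-2 DMBQ, and WRKY60 from 5.13 ± 4.38 to 12.1 ± 6.24, again with overlap throughout.

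The 6 genes were also compared by their pattern over the 24 libraries. Likeness was measured as the root mean square difference of log2 CPM after centring each gene on its own mean, where 0 is an identical pattern. It is not scaled, so genes that change together but by unlike amounts lie apart. WRKY18 and WRKY33, from different groups, were the closest pair of the 6 at 0.446, followed by WRKY25 and WRKY26, both of group I, at 0.596. WRKY18 and WRKY40, both of group IIa, were 1.07 apart, further than WRKY18 and WRKY25 at 0.685. Yet the group means of WRKY18 and WRKY40 ranked in the same order, as did those of WRKY33, of group I. Among 14670 other genes with a mean of at least 5 CPM, the most alike to WRKY33 were AR781, MYB77 and SZF1 (0.317, 0.341 and 0.39, against a median of 1.11 over those genes). SZF1 encodes a zinc finger protein and MYB77 a MYB factor. AR781 went from 30.2 to 173 CPM between WT mock and WT DMBQ and reached 103 CPM in card1-1 DMBQ and 100 CPM in card1-2 DMBQ.

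For WRKY18 the most alike genes were RDUF2, a ubiquitin ligase gene, TCH2, which encodes a calmodulin-like protein, and AT1G23710 (0.273, 0.304 and 0.32). For WRKY40 they were the ethylene response factor genes ERF5 and ERF104 and the zinc finger gene RHL41, also named ZAT12, at 0.551 for ERF5, 0.56 for RHL41 and 0.597 for ERF104. WRKY60 was nearest to AT2G47310, AT1G34750 and NPR1 (0.418, 0.442 and 0.453), WRKY25 to the kinase gene PEPKR1, AT1G77930 and AT2G03470 (0.172, 0.178 and 0.188), and WRKY26 to AT3G10020, AT4G16563 and AT1G64370 (0.455, 0.456 and 0.46). The likeness of the less variable genes is small in part because they varied little, with an SD of 0.261 for WRKY25 against 1.55 for WRKY40 on the log2 scale. All values share the same libraries and their depth and quality, and carry no test.

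Genes around WRKY33 responded unevenly. Of 11 kinases and VQ-motif partners of WRKY33, 10 were tested and 1 rose in WT, with a median log2 fold change of 0.18, against −0.0066 over all genes tested. The shares of all genes called in each genotype, 1.03% in WT, 6.70% in card1-1 and 2.20% in card1-2, stand behind this count and those of the lists that follow. That gene was MPK3, the kinase that phosphorylates WRKY33, at 53.3 ± 11.9 CPM in mock and 128 ± 19 CPM with DMBQ (SD, n = 4). Its log2 fold change was 1.27 (SE 0.28, adjusted p = 0.0122). In card1-1 its log2 fold change was 0.30 and in card1-2 0.68, neither of them called. Its partner kinase MPK6 had −0.095 in WT. MPK6 was the 1 gene of the 10 called in card1-1 (0.88, adjusted p = 0.0403), a count close to the share of all genes called there. It was named after its values were seen, and limma voom did not call it. In card1-2, 0 were called by edgeR, DESeq2 or limma voom, and 1 had an unadjusted p under 0.05.

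Of 12 genes of camalexin synthesis and other known WRKY33 targets, 5 passed the filter on low counts and 1 rose in WT (median 0.40). ACS6, an ethylene synthesis enzyme gene known as a WRKY33 target, had 5.06 ± 2.30 CPM in mock and 28.1 ± 8.80 CPM with DMBQ (SD, n = 4), a rise of 2.44 log2 units (SE 0.50, adjusted p = 0.00393). Its log2 fold change was 0.28 in card1-1 and 1.63 in card1-2, and neither was called (adjusted p = 0.828 and 0.0917). PAD3, which catalyses the last step of camalexin synthesis, was near the detection limit with 2.59 ± 1.75 CPM in WT mock and 0.485 ± 0.417 in WT DMBQ, and 0.472 ± 0.766 and 3.42 ± 0.628 CPM in card1-2 mock and DMBQ. It was not called in any genotype by edgeR, and it was named after its values were seen. In card1-1 and in card1-2, 0 of the 5 targets were called by edgeR, with 2 at an unadjusted p under 0.05 in each, while DESeq2 called 1 in each and limma voom 0.

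Of 11 known targets and partners of WRKY18, WRKY40 and WRKY60, 9 were tested and 0 were called in WT by edgeR, with 2 at an unadjusted p under 0.05, while DESeq2 called 1 and limma voom 0 (median 0.39). In each mutant 1 of these genes was called higher, BAP1, a membrane-associated cell death suppressor gene, at 2.15 in card1-1 and 1.96 in card1-2 (adjusted p = 0.00629 and 0.0198), against 1.65 in WT (adjusted p = 0.0771). BAP1 was named after its values were seen, and limma voom called it in neither mutant. Of 6 heat genes known to depend on WRKY25, WRKY26 and WRKY33, 5 were tested and 1 rose in WT, the zinc finger repressor gene ZAT10 (4.45, SE 0.57, adjusted p = 1.87e-06). ZAT10 was also called in card1-1 (2.44) and in card1-2 (2.88). HSFA3, a heat shock factor gene, was the other heat gene called in card1-1 (adjusted p = 0.00948), and it too was named after its values were seen.

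WRKY relatives gave no calls in WT. Of 10 other group I WRKY genes 7 were tested, 0 were called by edgeR, DESeq2 or limma voom and 0 had an unadjusted p under 0.05 (median 0.0076). Of 8 group IIb genes 6 were tested, 0 were called by any of the 3 tools and 2 had an unadjusted p under 0.05 by edgeR (median 0.55). In card1-1 and card1-2, edgeR and limma voom called 0 of either list, and DESeq2 called 2 group IIb genes in card1-2 and 0 otherwise. Unadjusted, by edgeR, 2 group I genes were under 0.05 in card1-1 and 1 in card1-2, and 0 and 2 group IIb genes. The 6 genes themselves had a median log2 fold change of 1.18 in WT (−0.0066 over all genes tested), 0.37 in card1-1 (−0.0045) and 1.11 in card1-2 (0.025). For the difference of response between either mutant and WT, 0 genes of these lists were called by edgeR, DESeq2 or limma voom. Of the list genes named above, the smallest unadjusted p was that of the barely detected PAD3 in card1-2 (difference 5.25, SE 1.55, unadjusted p = 0.00153, adjusted p = 0.256 by edgeR). ACS6 in card1-1 followed (−2.17, SE 0.71, unadjusted p = 0.00452, adjusted p = 0.262 by edgeR).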

How the data were processed

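Per the labels' protocols, RNA-seq libraries followed Townsley et al. Per the submitters' processing notes, which give no roles, HTSeq 0.6.1, TopHat2 2.1.1, TopHat, bcl2fastq 2.17 and CASAVA were used with the build TAIR10. The sources used here give neither the annotation release nor the strand setting. The authors deposited whole-number raw read counts per gene, recorded here in the class of estimated counts because 1 line of the same columns holds fractions. No value needed rounding. Left out of all sizes and tests were 9 lines without a gene; of all records counted, 1.86% to 3.10% had no feature, 0.149% to 0.360% were ambiguous and 17.3% to 66.5% were alignments not unique.

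Groups and replicate numbers came from the labels. Genes were filtered with filterByExpr (minimum count 10, minimum total 15), scaled by TMM, and fitted with edgeR 4.0.16 (robust quasi-likelihood, R 4.3.3), 1 term per group, no block, two-sided, in 11 comparisons. Adjusted p-values without another tool named are from that fit. Alternatives used DESeq2 1.42.0, limma 3.58.1, other scaling, filters, samples and covariates. The fit was run on simulated counts with known changes in WT DMBQ alone and an equal spread for all genes and libraries. It therefore does not cover changes in the mutants or the wider scatter of their libraries. Across the 36 replicate pairs within groups, chi-square per degree of freedom was 3.78 to 29.2, above sampling noise, so replicates were counted separately. This chi-square was not computed for pairs across groups. Of 33602 genes, 32835 matched RefSeq TAIR10.1, the source of names, sequences and coordinates. The 6 genes and the gene lists were chosen with earlier results of these data known. Named were the 6 genes, CARD1, from each list up to 3 genes called per direction in WT (smallest p) and up to 2 in the differences of response, and the 3 most alike genes per member.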

Additional observations from a re-analysis of the deposited data

Results flagged for a closer look

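Each of the 6 WRKY genes was checked in each of the 6 groups for a library standing apart from the other 3, by the gap to its nearest neighbour as a share of the group's range. Of 36 such checks 3 passed Dixon's 95% critical value for 4 samples, where chance alone gives about 1 in 20. WRKY18 in WT mock replicate 1 was 43.4 CPM, against 30.4 to 31.8 in the others. WRKY60 in WT DMBQ replicate 3 was 21.5 CPM, against 8.68 to 9.55. WRKY33 in the same library was 507 CPM, against 420 to 428. The calls of WRKY18 and WRKY33 in WT were kept without each of these libraries, and WRKY60 was called in none of its 34 alternatives.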

How the results depend on the processing

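Of 373 recomputed counts of called members over 11 comparisons, 364 stayed within 1.5 times the count reported. In card1-1 the count of 1 became 0 with the share not unique as a covariate, and leaving out single libraries gave 1 to 2 (2 without card1-1 DMBQ replicate 2). For the response in card1-1 minus that in WT, the count of 0 became 1 with DESeq2, 1 with a replicate block and 1 without libraries above 55% not unique, and 0 to 1 leaving out single libraries (1 without card1-1 DMBQ replicate 3). For card1-1 against WT with DMBQ, the count of 0 became 1 with the replicate block (WRKY33, −1.03), 1 with the covariate (WRKY40, −2.13) and 1 without the libraries above 55% (WRKY18, −1.14). The cause was not tested. Leaving out single libraries gave 3 to 3 in WT and in card1-2 and 0 to 0 in the other comparisons. Of 2233 recomputed fold changes 2222 kept their side of the threshold, 2 lost and 9 gained a call, and none with a call changed sign. Values without a call changed sign 67 times, in 15 of 66 results, mostly near 0. DESeq2 gave WRKY60 no adjusted p in 5 comparisons, and the mean of both alleles has no fit on fewer groups.

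The rule for treating replicate numbers as pairs, every same-number correlation of deviations over 0.1, was not met. The 60 same-number correlations ran from −0.0593 to 0.235, with 16 over 0.1 (5 of 180 for other numbers). Yet same-numbered libraries were more alike, with a median of 0.0543 against −0.0226 for other numbers, and 18 of 24 libraries matched best with their own number. What the numbers share was not tested, and the main fit has no block. The replicate block called WRKY26 in card1-2 (1.02, adjusted p = 0.0496) and WRKY33 in the card1-1 response difference (−1.80, adjusted p = 0.0335). It also called WRKY33 in card1-1 against WT with DMBQ (−1.03, adjusted p = 0.0484).

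Over all genes, calls moved more. The count was 182 in WT (117 to 349 over the alternatives), 1189 in card1-1 (119 to 1559), 390 in card1-2 (188 to 615), 142 for card1-1 against WT with DMBQ (34 to 312) and 140 for card1-2 (17 to 400). For the response differences it was 10 in card1-1 (2 to 99), 5 in card1-2 (1 to 56), 11 for their mean (1 to 119) and 0 between alleles (0 to 45), and in mock 0 (0 to 6) and 4 (1 to 19). With total counts the splits with DMBQ were 31 higher and 115 lower in card1-1 (49 and 93 as reported) and 37 and 127 in card1-2 (83 and 57). Depth limits WRKY40 in mock and WRKY60, with as few as 5 and 3 counts in a library.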

Other observations

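WRKY26 had replicates 3 and 4 both above replicates 1 and 2 in 5 of the 6 groups, a split noticed after its values were seen. Of the genes tested, 258 (1.45%) showed this in at least 5 groups and 127 (0.716%) the opposite. WRKY60, WRKY33 and WRKY25 showed it in 3 groups each, and WRKY18 and WRKY40 in 1 each. The labels do not say what a replicate number marks.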
